A study of Mus musculus with 14 samples.

Results

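The replication-dependent histone genes are the clustered genes that supply histone protein while DNA is copied. They were taken as every row of the deposited count table whose symbol begins with H2ac, H2bc, H3c or H4c and a number, or is H1f1 to H1f5 or H2aw, and that reached a level of 1 CPM (read counts scaled to a common library total) in at least 2 libraries. Of 25017 rows, 52 matched by symbol and 51 reached that level: 5 linker histone H1, 12 H2A, 14 H2B, 10 H3 and 10 H4 genes. In the RefSeq annotation of GRCm38.p6, 44 of the 51 lie on chromosome 13, 6 on chromosome 3 and 1 (H2aw) on chromosome 11. The rule used level alone, over all libraries, and no comparison between groups. Near its threshold, H2bc1, known as the testis H2B, had 3 and 2 counts in cGVHD PSGL1lo, 6 and 0 in cGVHD PSGL1hi and 18 and 17 in GVHD-free PSGL1lo spleen libraries, so it was kept through the GVHD-free libraries alone. H2ac1 fell outside, with 0 to 4 counts per library.

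The study used mice with chronic graft-versus-host disease (cGVHD), in which donor T cells attack the tissues of a transplant recipient. BALB/c recipients received T-cell-depleted bone marrow of C57BL/6 origin, either with splenocytes (cGVHD) or without (GVHD-free). At day 30 after transplantation, CD4+ T cells of the donor were separated into those with low and high surface PSGL1, a selectin ligand encoded by Selplg. The 14 RNA-seq libraries form 7 groups of 2: PSGL1lo and PSGL1hi cells of cGVHD spleen, PSGL1lo cells of GVHD-free spleen, and PSGL1lo and PSGL1hi cells of cGVHD liver and of cGVHD lung. All recipients share the marrow graft, and because GVHD-free recipients got no splenocytes, disease cannot be told apart from where the donor T cells came from. The labels give neither the animals' age nor whether replicates came from separate animals, so each p-value reflects the spread among these libraries, which could be purely technical. Levels below are CPM after trimmed-mean (TMM) scaling of the library totals. A gene is called higher or lower at a Benjamini-Hochberg adjusted p under 0.05 in edgeR's quasi-likelihood test, over 13780 genes.

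Each nucleosome wraps DNA around pairs of H2A, H2B, H3 and H4, and H1 binds the linker between nucleosomes. The messengers of these genes are made in S phase and, unlike other messengers, end in a conserved stem-loop in place of a poly(A) tail. Stem-loop binding protein (SLBP) binds this hairpin for 3′ processing, translation and timed decay, so the RNA disappears when replication ends. In lymphocytes, their level therefore follows proliferation, and their recovery in a library also depends on how much RNA without a tail was captured.

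The stem-loop is a feature that most members share beyond the rule, and it is why the capture of untailed RNA is given beside the results. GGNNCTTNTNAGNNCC, in which N is any base, was searched on the sense strand of GENCODE vM21 transcripts (GRCm38). These 16 bases stood in 34 of the 51 members, counted as genes. Counted as transcripts, they stood in 174 of 58745 protein-coding transcripts not matched to a member (0.296%). That background was not cleared of unmatched transcripts of members or of histone genes outside the rule. The other 17 members' models do not contain these letters. Many of these models are short, such as those of H4c12 with 312 bases and H2bc18 with 381, though that of H2bc21 has 2620. A model can end before the hairpin, so these genes are not read as lacking it. There were 8 versions, of which the commonest, carried by 18 members, is shown for H1f2. H2aw is shown for the same hairpin in a gene on another chromosome, H2bc3 and H3c7 for a version in 5 members of the H2B and H3 classes, H4c3 for a version in 4 H4 genes, and H4c9 for one shared with H4c14. Capitals mark the stem-loop, with 5 bases on each side.
H1f2: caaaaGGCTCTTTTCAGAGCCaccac
H2aw: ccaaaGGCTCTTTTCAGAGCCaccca
H2bc3: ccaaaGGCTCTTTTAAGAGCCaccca
H3c7: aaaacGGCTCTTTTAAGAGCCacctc
H4c3: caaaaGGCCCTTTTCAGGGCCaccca
H4c9: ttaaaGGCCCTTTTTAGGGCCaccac

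The sort and the capture of untailed RNA were checked first. Selplg averaged 259 ± 30 CPM in PSGL1lo against 503 ± 17 CPM in PSGL1hi cGVHD spleen cells (SD, n = 2 each; log2 change -0.96, edgeR adjusted p = 5e-08), and was also lower in PSGL1lo cells of liver and lung. GVHD-free PSGL1lo spleen cells had 153 ± 10 CPM, so Selplg was called higher in cGVHD than in GVHD-free PSGL1lo cells (0.76, edgeR adjusted p = 1.28e-06). The 2 PSGL1lo spleen groups were therefore not matched in Selplg, and the part of this in the disease comparison was not tested. Totals were 13222005 to 23000993 counts in the 6 spleen libraries and 22380631 to 33532595 in the 8 liver and lung libraries. Spleen libraries on one side and liver and lung libraries on the other carry separate runs of library numbers, here called series, although the labels name the same mRNA kit for all. Small nucleolar, small Cajal body and other RNAs without a tail held 2.0% to 3.25% of counts in spleen libraries and 0.00654% to 0.0103% in liver and lung libraries. Members held 0.419% to 1.5% of counts in spleen and 0.00571% to 0.0125% in liver and lung. Tissue cannot be told apart from library series, so tests of level were made within a tissue, and levels set across tissues are descriptions. Many members have near-identical coding sequence, and the sources used here do not give how shared reads and strand were handled, so the values of single members are less certain than those of a class.

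In cGVHD spleen, PSGL1lo cells held much less histone messenger than PSGL1hi cells, in every class. The summed level of the 51 members was 5286 and 4478 CPM in the 2 cGVHD PSGL1lo libraries, 14975 and 12810 CPM in the 2 cGVHD PSGL1hi libraries, and 3956 and 4085 CPM in the 2 GVHD-free PSGL1lo libraries. The PSGL1hi libraries lay above all others, and both cGVHD PSGL1lo libraries lay above both GVHD-free ones by a smaller margin. The ratio of means was 0.351 for PSGL1lo over PSGL1hi and 1.21 for cGVHD over GVHD-free, with no test, since the smallest p of an exact permutation test on 2 against 2 libraries is 0.333. In these bulk samples, fewer cells in S phase and less histone RNA per cell cannot be told apart.

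**Figure D1:**
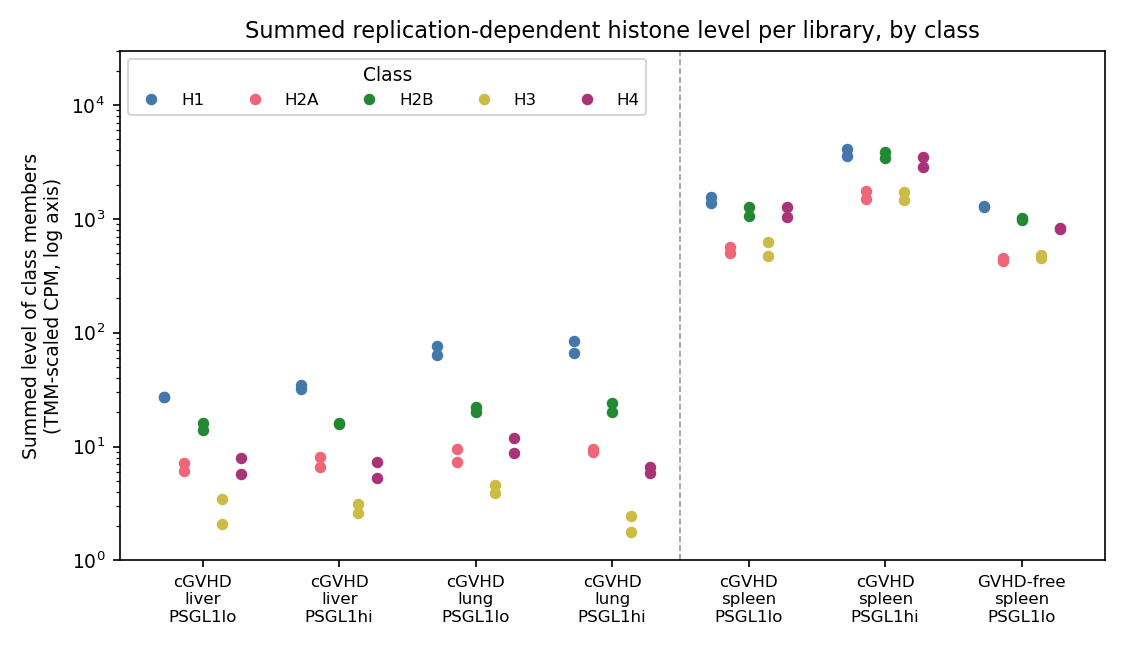
Summed TMM-scaled CPM (log axis) of the members of each histone class, 1 point per library, with PSGL1lo left of PSGL1hi and cGVHD left of GVHD-free. The dashed line separates the 2 library series. Every class stands highest in the cGVHD spleen PSGL1hi libraries, and the sums over all members in liver and lung stay between 55.4 and 127 CPM.

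In each class the PSGL1hi libraries again lay above all others. H1 averaged 1470 ± 115 CPM in cGVHD PSGL1lo, 3870 ± 391 in cGVHD PSGL1hi and 1290 ± 10.3 in GVHD-free PSGL1lo cells (SD, n = 2 each). H2A averaged 533 ± 41.8, 1620 ± 176 and 440 ± 17.1 CPM in the same 3 groups, and H2B averaged 1170 ± 158, 3630 ± 313 and 1000 ± 29.9 CPM. H3 averaged 550 ± 103, 1610 ± 184 and 469 ± 21.5 CPM, and H4 averaged 1160 ± 153, 3170 ± 467 and 822 ± 12 CPM. In all 5 classes the PSGL1hi mean exceeded the PSGL1lo mean by more than the spread between libraries, while for H1, H2B and H3 the means of the 2 PSGL1lo groups lay within 2 SD of each other. For H3 the libraries of those groups overlapped, with 477 CPM in the lower cGVHD PSGL1lo library and 485 CPM in the higher GVHD-free one.

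Tested gene by gene, 49 of the 51 members were lower in PSGL1lo than in PSGL1hi cells of cGVHD spleen and none was higher; of all genes tested, 16.7% were lower and 15.8% higher (32.5% called). The median log2 change of the members was -1.56, against 0 over all genes. By class, 5 of 5 H1 genes were lower (median -1.42), 12 of 12 H2A (-1.62), 12 of 14 H2B (-1.56), 10 of 10 H3 (-1.59) and 10 of 10 H4 (-1.47). At an unadjusted p under 0.05 there was also no member higher (0 of 51), and DESeq2 called 48 lower and 0 higher. Leaving out any 1 of the 4 libraries left 48 calls, the one lost being H2ac21, which had 9.46 and 7.71 CPM in PSGL1lo against 16 and 13.1 CPM in PSGL1hi libraries (log2 change -0.76).

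**Figure D2:**
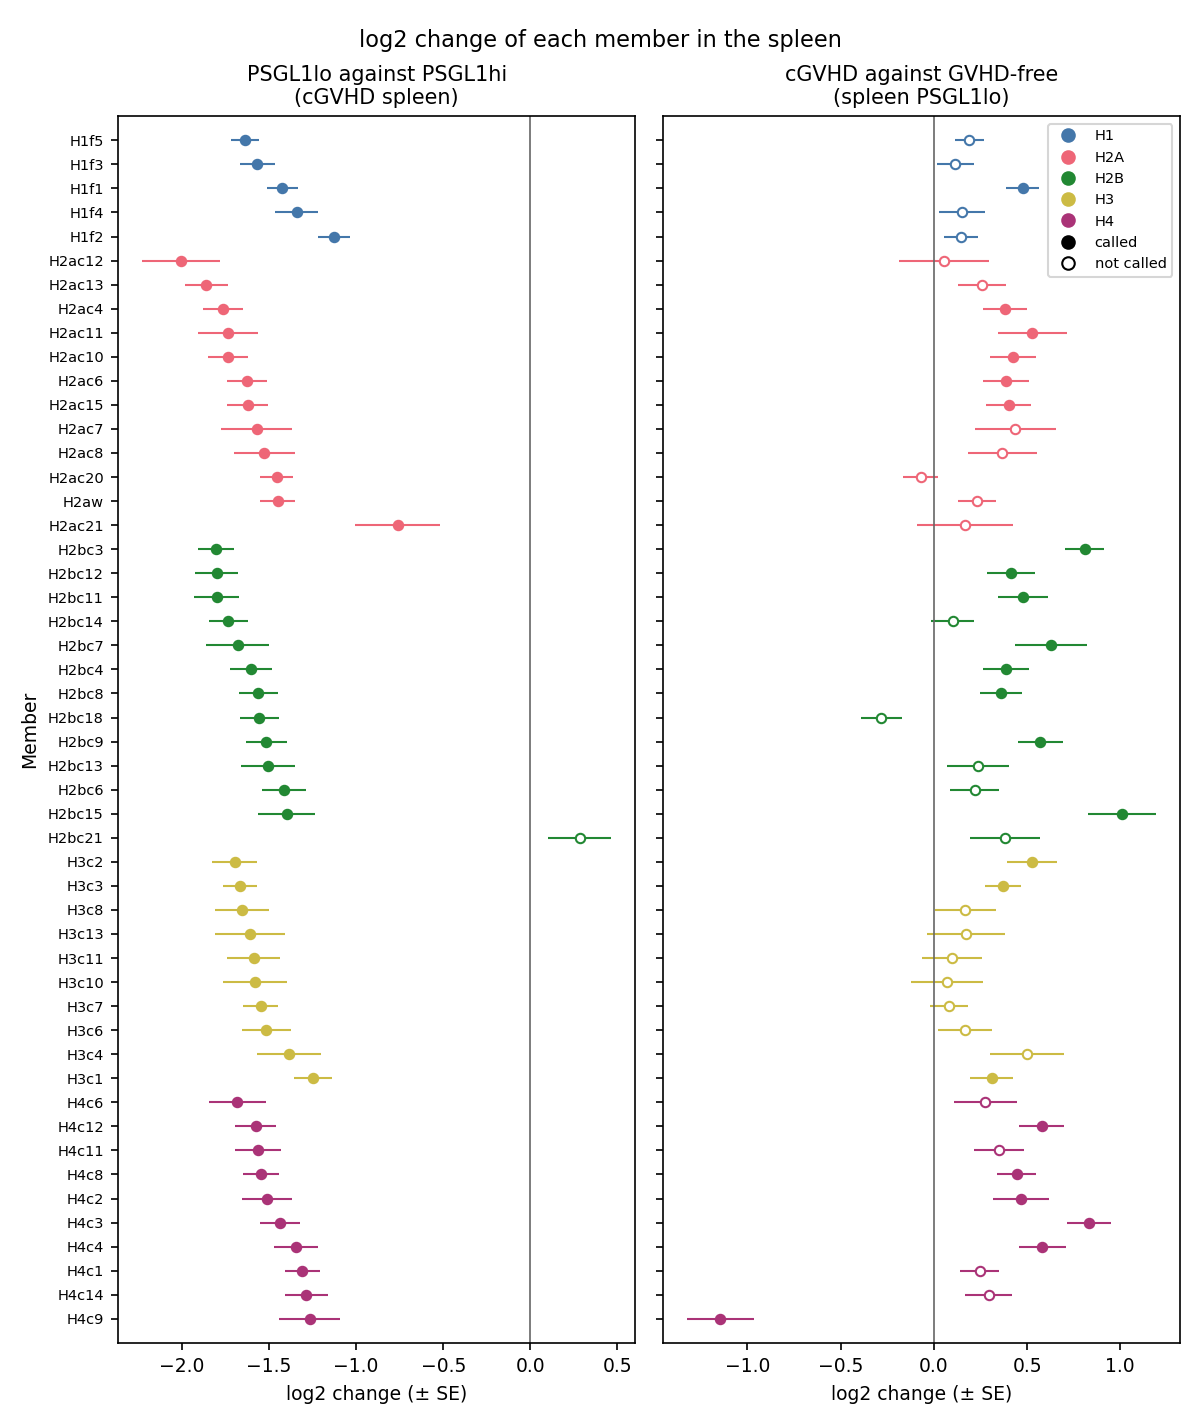
Log2 change (± SE) of 50 members, by class, for PSGL1lo against PSGL1hi cells of cGVHD spleen (left) and for cGVHD against GVHD-free PSGL1lo spleen cells (right). Filled points are called at an adjusted p under 0.05. H2bc1 is left out for its low counts. On the left, all members but H2bc21 lie below -0.7, and on the right they lie between -1.15 (H4c9) and 1.01 (H2bc15).

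Among the linker histones, which compact the fibre between nucleosomes, H1f2 had 509 and 457 CPM in PSGL1lo and 1147 and 961 CPM in PSGL1hi libraries of cGVHD spleen. Its change was the smallest of the class (log2 change -1.13, SE 0.0919, edgeR adjusted p = 6.08e-09). H1f5 had 281 and 275 CPM in PSGL1lo and 934 and 797 CPM in PSGL1hi libraries, and its change was the largest of the class (-1.64, SE 0.0801, adjusted p = 4.26e-12). For both genes the groups did not overlap, and the 2 PSGL1lo libraries were closer to each other than the PSGL1hi libraries were. Such separation is common with 2 libraries a group. Of all genes tested, 33.7% had both PSGL1lo libraries below both PSGL1hi ones, and 32.3% had them above. H1f3 had 305 and 264 CPM in PSGL1lo against 896 and 790 CPM in PSGL1hi libraries (-1.57).

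The H2A genes encode the partner of H2B at the edges of the nucleosome core. H2aw, the only member on chromosome 11, had 131 and 117 CPM in PSGL1lo and 345 and 333 CPM in PSGL1hi libraries of cGVHD spleen (log2 change -1.45, SE 0.1, edgeR adjusted p = 5.57e-10). H2ac15 had 115 and 84.9 CPM in PSGL1lo and 338 and 278 CPM in PSGL1hi libraries (-1.62), and H2ac4 had 59.4 and 67.8 CPM in PSGL1lo and 245 and 188 CPM in PSGL1hi libraries (-1.77). So the member that lies on neither chromosome 13 nor 3 was lower in PSGL1lo cells, as most members on those chromosomes were. The largest falls of all members were in H2ac12, with 10.9 and 9.67 CPM in PSGL1lo against 47.1 and 35.7 CPM in PSGL1hi libraries (-2.01, SE 0.223, adjusted p = 6.73e-07), and H2ac13, with 37.6 and 31.8 CPM in PSGL1lo against 136 and 115 CPM in PSGL1hi libraries (-1.86, SE 0.123, adjusted p = 2.89e-10). Neither gene's groups overlapped, a separation that 33.7% of all tested genes showed in this direction.

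In the H2B class, H2bc18 had 370 and 300 CPM in PSGL1lo and 1027 and 942 CPM in PSGL1hi libraries of cGVHD spleen (log2 change -1.56, SE 0.111, edgeR adjusted p = 9.43e-10). H2bc3 had 275 and 241 CPM in PSGL1lo and 935 and 867 CPM in PSGL1hi libraries (-1.80, SE 0.104, adjusted p = 4.09e-11), and H2bc8 had 108 and 84.9 CPM in PSGL1lo and 304 and 263 CPM in PSGL1hi libraries (-1.56). All 3 were lower in both PSGL1lo libraries than in either PSGL1hi one, a separation that 33.7% of all tested genes showed. H2bc21, an H2B known from mouse olfactory neurons to be expressed outside S phase, had 10.1 and 9.21 CPM in PSGL1lo and 8.52 and 7.30 CPM in PSGL1hi libraries. Both its PSGL1lo values lay above both PSGL1hi values, as in 32.3% of all tested genes, and the difference was not called (0.28, SE 0.181, edgeR adjusted p = 0.247). H2bc1 was too low for a fold change.

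The H3 and H4 genes encode the tetramer deposited first on new DNA. H3c7 had 147 and 114 CPM in PSGL1lo and 405 and 356 CPM in PSGL1hi libraries of cGVHD spleen (log2 change -1.55, SE 0.0989, edgeR adjusted p = 2.03e-10). H3c6 had 148 and 96.3 CPM in PSGL1lo and 381 and 316 CPM in PSGL1hi libraries (-1.52), and H3c2 had 79.0 and 56.0 CPM in PSGL1lo and 222 and 215 CPM in PSGL1hi libraries (-1.70, SE 0.128, adjusted p = 1.81e-09). In each of these, replicate 1 was the higher of the PSGL1lo libraries, and the groups stood apart. H4c4 had 367 and 289 CPM in PSGL1lo and 866 and 799 CPM in PSGL1hi libraries (-1.35, SE 0.125, adjusted p = 3.9e-08). H4c3 had 246 and 195 CPM in PSGL1lo and 672 and 522 CPM in PSGL1hi libraries (-1.44, SE 0.115, adjusted p = 4.72e-09), and H4c8 had 144 and 118 CPM in PSGL1lo and 413 and 350 CPM in PSGL1hi libraries (-1.55, SE 0.103, adjusted p = 3.25e-10). The H4 groups did not overlap either, as in 33.7% of all tested genes in this direction. The smallest H4 change was in H4c9 (-1.27, SE 0.177, adjusted p = 9.99e-06).

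The cell cycle genes moved the same way in this comparison, in which 16.7% of all genes tested were lower and 15.8% higher. All 37 S-phase genes of a list of replication factors were lower in PSGL1lo cells of cGVHD spleen (median log2 change -0.75), with the replicative helicase factor Cdc45 at 23.0 ± 0.8 CPM in PSGL1lo cells, against 57.2 ± 5.8 CPM in PSGL1hi cells (SD, n = 2 each; -1.31, edgeR adjusted p = 1.73e-07) and the checkpoint mediator Clspn changed by -1.15. All 25 G2 and mitosis genes were lower too (median -1.39), with the mitotic cyclin Ccnb1 at 12.0 ± 1.2 CPM in PSGL1lo cells, against 41.5 ± 2.4 CPM in PSGL1hi cells (-1.79, adjusted p = 1.89e-07) and the ubiquitin-conjugating enzyme Ube2c changed by -1.71. The summed member level per summed S-phase level averaged 1.74 in cGVHD PSGL1lo, 3.01 in cGVHD PSGL1hi and 1.57 in GVHD-free PSGL1lo cells. Of the other untailed RNAs, 67 of 110 tested were higher in PSGL1lo cells (median 0.85), and their sum was 29700 ± 3390 CPM in PSGL1lo cells, against 22000 ± 2950 CPM in PSGL1hi cells. The small nucleolar RNA Snora81 had 125 ± 6.7 CPM in PSGL1lo cells, against 31.2 ± 2 CPM in PSGL1hi cells (2.0, adjusted p = 2.28e-10), and Snora20 changed by 2.11. With spleen libraries scaled to 104 of these RNAs, an alternative added after seeing the data, 49 members were called lower. Under that scaling most genes were called lower too, 8586 of 12721, and 73 were called higher. The members' median was -2.46 beside an all-gene median of -0.94.

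Of 21 factors that make, bind or degrade histone messengers, 2 were higher and 7 lower in PSGL1lo than in PSGL1hi cells of cGVHD spleen (median log2 change -0.13). Of all genes tested, 15.8% were higher and 16.7% lower. Slbp, the hairpin-binding protein, had 99.7 ± 6.2 CPM in PSGL1lo cells, against 146 ± 15 CPM in PSGL1hi cells (SD, n = 2 each; -0.55, edgeR adjusted p = 2.21e-05). Tut4, an enzyme that adds uridines to RNA ends, including those of histone messengers during decay, had 114 ± 8.5 CPM in PSGL1lo cells, against 75.4 ± 1.2 CPM in PSGL1hi cells (0.59, adjusted p = 6.09e-05). Zfp473, a zinc finger protein of the U7 processing complex, changed by -0.88 (adjusted p = 0.0468), a call lost under DESeq2, without PSGL1lo replicate 2 and without either PSGL1hi replicate. Of 25 histone chaperones and import factors, 3 were higher and 12 lower (median -0.16). Asf1b, which hands H3 and H4 to the replication fork in dividing cells, had 33.3 ± 0.47 CPM in PSGL1lo cells, against 82.2 ± 2.6 CPM in PSGL1hi cells (-1.30, adjusted p = 1.77e-08), and Chaf1a, a subunit of the replication-coupled assembly factor CAF-1, changed by -0.82. The paralogue Asf1a (0.36) and Hira (0.29), a chaperone of replication-independent H3.3, were called in the other direction.

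**Figure D3:**
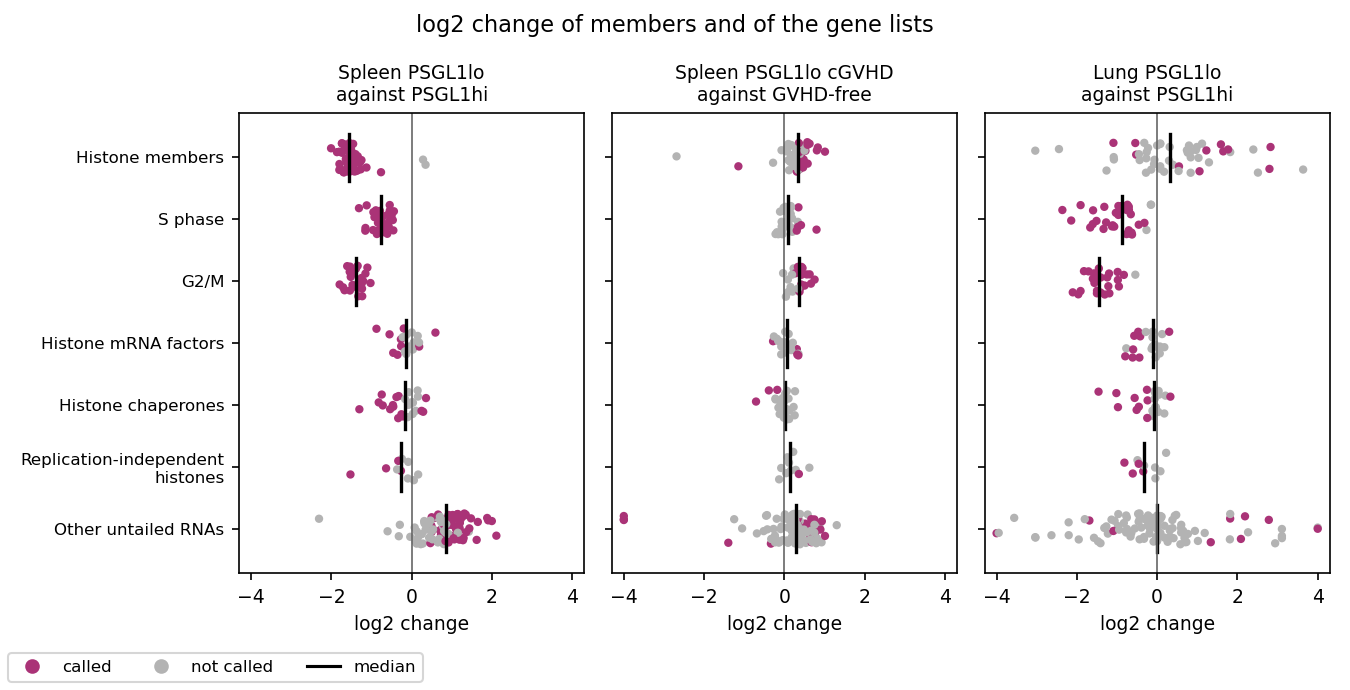
Log2 change of each tested gene (points, coloured where called) and the median (bar) of the members and of 6 gene lists, in 3 comparisons. Values beyond ±4 are drawn at ±4. In spleen (left) the members' median of -1.56 stands beside -0.75 for S phase and 0.85 for other untailed RNAs, and in lung (right) the members' median of 0.31 stands beside -0.88 for S phase.

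Of 10 tested histones that are also made outside replication, 4 were lower in PSGL1lo than in PSGL1hi cells of cGVHD spleen (median log2 change -0.25). Of all genes tested, 16.7% were lower. H2ax, the damage-marking H2A, whose messenger can end in either a stem-loop or a tail, had 137 ± 24 CPM in PSGL1lo cells, against 395 ± 64 CPM in PSGL1hi cells (SD, n = 2 each; -1.52, edgeR adjusted p = 3.05e-09). The centromeric H3 gene Cenpa changed by -0.64. Markers of other cells also differed between the sorted fractions. CD8 T-cell markers (2 of 2 tested lower) summed to 12.1 ± 0.313 CPM in PSGL1lo cells, against 77.6 ± 0.0658 CPM in PSGL1hi cells, myeloid markers (6 of 14 lower) to 188 ± 8.56 and 391 ± 20.2 CPM, natural killer markers (3 of 3 lower) to 71.7 ± 0.0778 and 140 ± 3.66 CPM, and B-cell and plasma-cell markers (2 higher and 2 lower of 8) to 21.5 ± 1.15 and 53.9 ± 3.93 CPM. Of 6 natural killer markers listed, 3 were tested. Most of their sum was Eomes, with 68.3 and 68 CPM in PSGL1lo and 132 and 127 CPM in PSGL1hi libraries. Ncr1 and Klra8 stood at 0.13 CPM or less in these libraries and Klra4 at 0, so the sum is not read as natural killer cells. Erythroid markers summed to 77.8 ± 2.52 CPM in PSGL1lo cells, against 87.7 ± 4.29 CPM in PSGL1hi cells, with the globin genes listed at 0. Cd4 averaged 1580 CPM and Cd3e 289 CPM in PSGL1lo cells, against 1530 and 225 CPM in PSGL1hi cells, and the part of other cells in the histone difference was not tested.

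Between disease states the members did not all go one way. In PSGL1lo spleen cells, 22 of the 51 members were higher in cGVHD than in GVHD-free recipients and 1 was lower; of all genes tested, 14.7% were higher and 12.8% lower (27.5% called). The median log2 change of the members was 0.35, against 0.01 over all genes. Called higher were 1 of 5 H1 genes (class median 0.15), 5 of 12 H2A (0.38), 8 of 14 H2B (0.39), 3 of 10 H3 (0.17) and 5 of 10 H4 (0.40). An alternative added after seeing the data scaled the spleen libraries to 104 other untailed RNAs. Under it, edgeR called 0 members higher (1 at an unadjusted p under 0.05), with a members' median of 0.06 beside an all-gene median of -0.29. Of 12721 genes, 444 were called higher and 1037 lower under that scaling. The calls of higher members below therefore hold under the TMM scaling and not under that one. Without GVHD-free replicate 1 the count of higher members was 8, and without cGVHD PSGL1lo replicate 1 it was 7, with 2 lower. The members called higher whichever of the 4 libraries was left out were 6: H1f1, H2bc3, H2bc9, H2bc15, H4c3 and H4c12. H4c9 remained lower in each. In these fits the single library of a group is taken to vary like the other groups.

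H1f1 was the H1 gene called, with 231 and 205 CPM in cGVHD and 160 and 153 CPM in GVHD-free PSGL1lo libraries (log2 change 0.48, SE 0.0879, edgeR adjusted p = 0.000241). H2bc15 had the largest positive change, with 26.9 and 21.4 CPM in cGVHD and 12.4 and 11.5 CPM in GVHD-free libraries (1.01, SE 0.182, adjusted p = 0.000183). H2bc3 had 275 and 241 CPM in cGVHD and 143 and 152 CPM in GVHD-free libraries (0.81, SE 0.104, adjusted p = 2.92e-06). In these 3 genes both cGVHD libraries lay above both GVHD-free ones, with cGVHD replicate 1 the highest. Of all genes tested, 33.6% had both cGVHD libraries above both GVHD-free ones, and 31.3% had them below. H2bc18 had 370 and 300 CPM in cGVHD and 404 and 411 CPM in GVHD-free libraries (-0.28, adjusted p = 0.0625), so both its cGVHD values lay below both GVHD-free values without a call.

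Among the H4 genes, H4c3 had 246 and 195 CPM in cGVHD and 120 and 128 CPM in GVHD-free PSGL1lo libraries of spleen (log2 change 0.83, SE 0.117, edgeR adjusted p = 9.84e-06). H4c9 had 10.2 and 10.9 CPM in cGVHD and 24.2 and 22.5 CPM in GVHD-free libraries (-1.15, SE 0.18, adjusted p = 3.67e-05). These genes of 1 class encode the same core histone and were called in opposite directions. The groups of each did not overlap, as in 33.6% of all tested genes upward and 31.3% downward. In cGVHD PSGL1hi libraries H4c9 had 27.0 and 23.9 CPM, next to its GVHD-free values. For cGVHD PSGL1hi against GVHD-free PSGL1lo cells, which differ in both fraction and disease and share libraries with the comparisons above, 48 members were called higher and 1 lower (H2bc1, which its GVHD-free level alone made a member), beside 25.2% and 23.5% of all genes (48.7% called). H4c9 (log2 change 0.12) and H2bc21 were the members not called there. Among the linker genes not called between disease states, H1f2 had a log2 difference of 0.14 (adjusted p = 0.272) and H1f5 one of 0.19 (adjusted p = 0.0836).

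**Figure D4:**
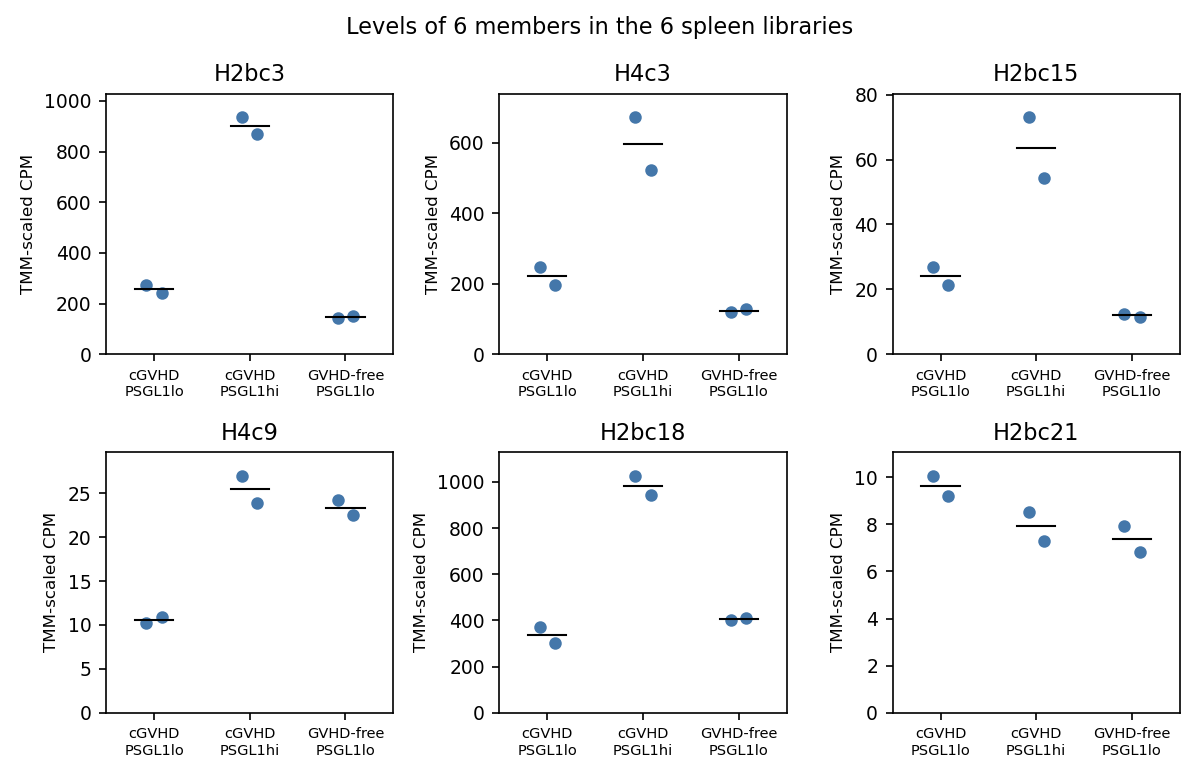
TMM-scaled CPM of 6 members in the 6 spleen libraries, 1 point per library with a bar at the mean of each group. H2bc3, H4c3 and H2bc15 stand highest in cGVHD PSGL1hi and lowest in GVHD-free PSGL1lo cells, H4c9 has 10.2 and 10.9 CPM in cGVHD PSGL1lo cells against 22.5 CPM or more elsewhere, and H2bc21 stays between 6.80 and 10.1 CPM.

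The promoters of 4 members are printed because H2bc3 and H4c3 were called higher in cGVHD, while H2bc18 of the H2B class was not called and H4c9 of the H4 class was called lower. Each is the 180 bases before the annotated start in RefSeq (GRCm38.p6), on the gene's strand, at chr13:23746554-23746733 (plus strand, H2bc3), chr3:96269520-96269699 (plus, H2bc18), chr13:23698459-23698638 (minus, H4c3) and chr13:22041363-22041542 (minus, H4c9). Capitals mark 4 motifs, or their reverse complements, which are named after the sequences.
H2bc3: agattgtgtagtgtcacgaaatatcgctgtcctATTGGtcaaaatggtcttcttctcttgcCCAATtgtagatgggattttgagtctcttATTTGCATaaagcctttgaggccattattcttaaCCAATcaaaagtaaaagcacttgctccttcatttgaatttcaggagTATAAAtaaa
H2bc18: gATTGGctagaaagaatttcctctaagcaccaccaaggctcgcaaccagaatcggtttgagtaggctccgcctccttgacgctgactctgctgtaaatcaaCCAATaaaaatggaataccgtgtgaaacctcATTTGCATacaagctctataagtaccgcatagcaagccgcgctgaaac
H4c3: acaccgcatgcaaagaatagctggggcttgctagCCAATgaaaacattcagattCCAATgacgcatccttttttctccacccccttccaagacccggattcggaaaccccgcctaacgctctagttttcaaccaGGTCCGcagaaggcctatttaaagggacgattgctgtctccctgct
H4c9: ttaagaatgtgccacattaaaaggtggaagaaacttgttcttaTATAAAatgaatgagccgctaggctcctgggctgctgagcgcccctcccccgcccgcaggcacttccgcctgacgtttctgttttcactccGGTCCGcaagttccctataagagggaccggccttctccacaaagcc

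CCAAT is the box bound by NF-Y and TATAAA the core letters of the TATA box. ATTTGCAT is the octamer known from H2B promoters and GGTCCG the core of the H4 element recognised by the protein encoded by Hinfp. The search went by letters alone, without regard to distance from the start. Both H2B promoters hold CCAAT and the octamer, and TATAAA stands in that of H2bc3. Both H4 promoters hold GGTCCG, while CCAAT stands in that of H4c3 and TATAAA in that of H4c9, and neither H4 window holds the other's. In these windows TATAAA stands right before the start in H2bc3 and far from it in H4c9. No working TATA box is read from either. Over the 250 bases before the start, on both strands, each motif counted on its own, 46 members had a promoter in the table, and none was found for H2bc4, H2bc21, H3c1, H3c7 and H4c14. CCAAT was in 40 of 46 (87%) against 34.5% of 27025 promoters, and in 3 of 9 H4 promoters. TATAAA was in 23 (50%) against 13%, ATTTGCAT in 12 (26.1%), all H2A or H2B, against 1.61%, and GGTCCG in 8 (17.4%), 6 of them H4, against 6.82%. H2A and H2B genes often stand head to head, so 1 stretch can count for both.

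In PSGL1lo spleen cells, 5 of 37 S-phase genes were higher in cGVHD than in GVHD-free recipients (median log2 change 0.08). That share is near the one over all genes, of which 14.7% were higher and 12.8% lower, and the counts below stand beside the same shares. Ccne2, a cyclin of S-phase entry, changed by 0.80 (edgeR adjusted p = 0.00106) and the origin subunit Orc6 by 0.41. Of 25 G2 and mitosis genes, 14 were higher (median 0.36), with the kinetochore protein Cenpf at 68.9 ± 8.8 CPM in cGVHD and 40.8 ± 6.4 CPM in GVHD-free cells (SD, n = 2 each; 0.75, adjusted p = 0.000101) and the cyclin Ccnb2 changed by 0.66. Of 21 messenger factors, 4 were higher and 1 lower: Slbp had 99.7 ± 6.2 CPM in cGVHD and 80.5 ± 0.23 CPM in GVHD-free cells (0.31, adjusted p = 0.00809), Tut4 changed by 0.35, and the call of Hinfp (0.32, adjusted p = 0.0499) was lost in most alternatives. Of 25 chaperones and import factors, 3 were lower, among them the importin Ipo4 (-0.71, adjusted p = 0.000207) and Daxx, an H3.3 chaperone (-0.39, adjusted p = 0.00133). Of 10 replication-independent histones, Cenpa was the 1 called (0.36, adjusted p = 0.00647).

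Of the other untailed RNAs, 20 of 110 tested were higher in cGVHD and 5 lower in these cells (median log2 change 0.28). Of all genes tested, 14.7% were higher and 12.8% lower. The untailed RNAs summed to 29700 ± 3390 CPM in cGVHD and 25100 ± 296 CPM in GVHD-free PSGL1lo cells (SD, n = 2 each). Their sum was 32113 CPM in cGVHD replicate 1 and 27316 CPM in replicate 2, against 25328 and 24909 CPM in GVHD-free libraries. Scaled to these RNAs, H4c9 was still called lower. The other lower call, H2bc1, was kept as a member through its GVHD-free level alone, so nothing is read from it. The part of untailed RNA capture in the difference was not tested further. Erythroid markers (6 of 8 higher, median 1.42) summed to 77.8 ± 2.52 CPM in cGVHD and 32.2 ± 4.58 CPM in GVHD-free cells. B-cell and plasma-cell markers (6 of 8 lower) summed to 21.5 ± 1.15 and 75.1 ± 1.8 CPM in the same order, and myeloid markers (4 higher and 2 lower of 14) to 188 ± 8.56 and 130 ± 5.1 CPM. The part of such cells was not tested.

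In liver and lung, most members were far below their spleen level, and the sums over all members lay close together in the 2 fractions. The members summed to 61.7 and 55.4 CPM in liver PSGL1lo and 65.7 and 66.1 CPM in liver PSGL1hi libraries. In lung they summed to 104 and 125 CPM in PSGL1lo and 127 and 103 CPM in PSGL1hi libraries. The PSGL1lo sums lay below the PSGL1hi sums in liver and overlapped them in lung. Across cGVHD libraries, the median member stood at 0.321% of its spleen level in liver and 0.364% in lung. A count of 3, the limit that a count of 0 allows, is 0.0859 to 0.135 CPM in these libraries, for counting error alone, and 8 members in liver and 12 in lung averaged less than 0.121 CPM, the mean of that limit.

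Of the 51 members, 8 stood above 1% of their spleen level in both tissues, a limit set after the values were seen, across tissues that differ in library series. H2bc21 stood at 80.1% of its spleen level in liver and 73.4% in lung, and H4c9 at 6.81% and 8.58%. H2bc4 stood at 1.95% in liver and 7.03% in lung, H1f2 at 1.57% and 4.82%, H1f4 at 2.13% and 4.01%, H2aw at 1.77% and 2.42%, H1f3 at 1.03% and 2.39% and H2ac21 at 1.98% and 1.6%. The GENCODE models of these 8 genes run from 444 bases (H2ac21) to 7425 bases (H1f3), with a median of 1745, while the median of the other 43 is 520 bases. The ranges overlap through H2ac21, as 30 of the other 43 models are at least as long as its model. The next shortest model of the 8 is that of H4c9, with 727 bases. The part of model length was not tested. In the 21 members whose model runs over 50 bases past the stem-loop, the median was 0.384% in liver and 0.371% in lung, against 0.188% and 0.224% in the 13 whose model ends within 50 bases of it, and 0.403% and 0.567% in the 17 whose model lacks the search letters.

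**Figure D5:**
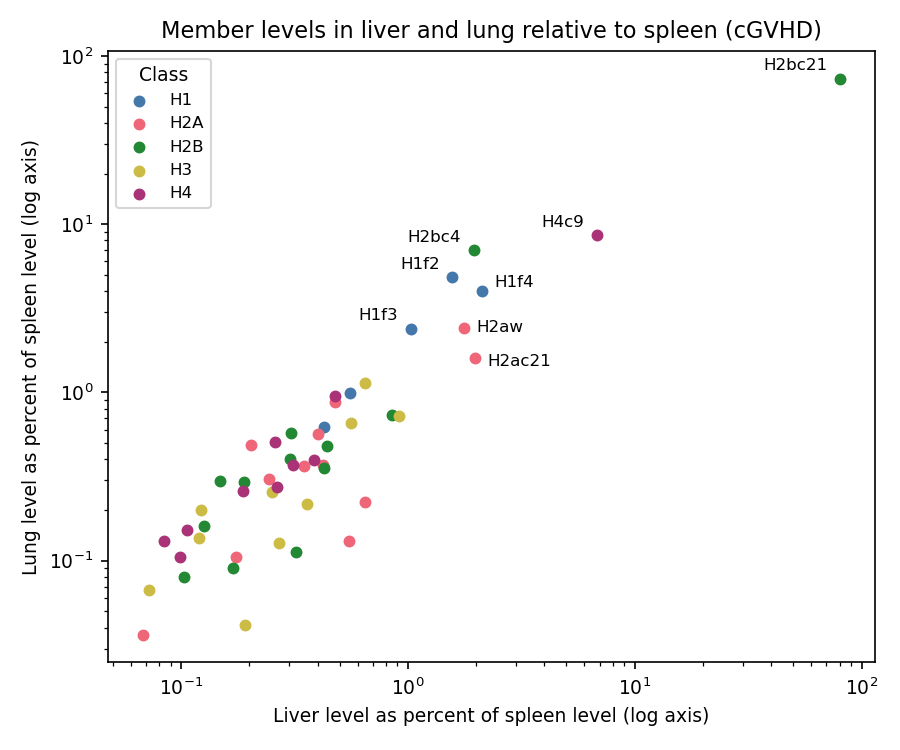
Level of each member in cGVHD liver (x) and lung (y) as a percent of its cGVHD spleen level, on log axes, coloured by class, with H2bc1 left out. H2bc21 stands at 80.1% and 73.4%, and 49 members in liver and 48 in lung are under 5%, H2bc1 (listed at 0 in both) among them.

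In liver, 2 members were lower in PSGL1lo than in PSGL1hi cells and 0 higher (3 at an unadjusted p under 0.05, and 0 by DESeq2), beside 12.3% lower and 8.50% higher among all genes (20.8% called). They were H2ac4 (log2 change -2.23, edgeR adjusted p = 0.0213) and H2ac20 (-0.99, adjusted p = 0.0393), both at low level, and without single libraries each call was lost, that of H2ac20 in all 4 such fits and that of H2ac4 in 3 of the 4. The members' median log2 change was -0.11 and that of all genes -0.02, while in the same cells 30 of 37 S-phase genes and 22 of 25 G2 and mitosis genes were lower. In lung, 8 members were higher in PSGL1lo than in PSGL1hi cells and 3 lower, beside 12.9% and 20.1% of all genes (33.0% called). The count of higher members was 3 without lung PSGL1lo replicate 2 or without lung PSGL1hi replicate 2. There 34 of 37 S-phase genes (median -0.88) and 24 of 25 G2 and mitosis genes (-1.45) were lower, while the members' median was 0.31 and that of all genes -0.03.

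H2bc18 had 3.98 and 6.16 CPM in PSGL1lo and 2.85 and 2.04 CPM in PSGL1hi lung libraries (log2 change 1.06, SE 0.23, edgeR adjusted p = 0.0011). H1f2 had 27.8 and 32.4 CPM in PSGL1lo and 47.8 and 40.0 CPM in PSGL1hi lung libraries (-0.54, SE 0.105, adjusted p = 0.000325). H2bc4 had 4.71 and 4.51 CPM in PSGL1lo and 10.9 and 8.78 CPM in PSGL1hi lung libraries (-1.09, SE 0.167, adjusted p = 2.45e-05). The groups did not overlap in any of the 3, and their calls held whichever lung library was left out, as did that of H3c7, which lay below 1 CPM in all 4 libraries. Of all genes tested, 37.1% had both lung PSGL1lo libraries below both PSGL1hi ones, and 29.6% had them above. H2aw was the other member called lower, with 4.16 and 5.05 CPM in PSGL1lo and 6.57 and 6.62 CPM in PSGL1hi lung libraries (-0.52, adjusted p = 0.0184). H1f4, H2ac21, H3c6, H4c2, H4c8 and H4c14 were the others called higher. H1f4 had 15 and 19.7 CPM in PSGL1lo and 14.5 and 9.40 CPM in PSGL1hi lung libraries (0.54, adjusted p = 0.012).

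Tested as a difference between tissues, the PSGL1lo effect was lower in spleen than in liver for 22 of the 51 members and higher for 0, beside 2.64% lower and 4.20% higher among all genes (6.84% called). Against lung it was lower for 26 members and higher for 0, beside 5.51% lower and 11.1% higher (16.6% called). No member was higher at an unadjusted p under 0.05 in edgeR in either test (0 of 51), or by DESeq2, which called 26 and 33 lower. The count against liver was 8 without liver PSGL1lo replicate 1 and 12 without liver PSGL1hi replicate 2. For H2bc21 neither difference was called (0.44, adjusted p = 0.328 against liver, and -0.03, adjusted p = 0.968 against lung). Since tissue cannot be told apart from library series, these differences hold between libraries that captured untailed RNA at very unequal levels, and the part of that capture was not tested.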

How the data were processed

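RNA-seq counts per gene of 14 libraries of sorted donor CD4+ T cells were used as deposited. Per the submitters' processing notes, the authors used TopHat2 2.0.8, HTSeq and mm9. Per the labels' protocols, total RNA was made into libraries with an mRNA kit. The sources used here do not give how reads with several alignments, or strand, were treated. No genome or annotation of mm9 was used. Groups came from the sample labels.

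Genes were filtered with filterByExpr, scaled with TMM and fitted in 1 model with 1 mean per group in edgeR 4.0.16 (R 4.3.3), by the quasi-likelihood F test, 2-sided, with Benjamini-Hochberg adjustment over 13780 genes and 7 residual degrees of freedom. All 51 members passed the filter. The SE printed with a log2 change was derived from the test, as the absolute change divided by the square root of F. The biological coefficient of variation was 7.35%. Totals of 13222005 to 33532595 counts put 3 counts at 0.0859 to 0.223 CPM. DESeq2 1.42.0, other scalings and filters, fits within tissues, a replicate block and leaving out each library were alternatives. The test was checked on simulated data.

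The members and gene lists were chosen with earlier results of these data known. Named were, in each class, the 3 members with the highest spleen CPM (not divided by length), the 3 with the largest positive and negative change in each of the first 2 comparisons, and from each list the 2 called genes with the largest change, plus Slbp, Selplg and the members beside the level threshold. Other named members were chosen after their values were seen. Stem-loops were searched in GENCODE vM21 transcripts and promoters taken from RefSeq (GRCm38.p6), matched by symbol. No pair of libraries agreed within counting noise.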

Additional observations from a re-analysis of the deposited data

Results flagged for a closer look

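The PSGL1lo against PSGL1hi change of 13 members with at least 1 CPM in all 4 groups of a tissue pair, a level chosen after the values were seen, was compared between tissues by edgeR's test of the difference. Against liver, 11 of the 13 differed at an adjusted p under 0.05, each lower in spleen, beside 6.84% of all genes called. The log2 differences (spleen minus liver) among linker histones were -1.34 for H1f1, -0.858 for H1f2, -1.35 for H1f3, -0.911 for H1f4 and -1.36 for H1f5. Among core histones they were -1.58 for H2aw, -2.04 for H2bc18, -1.07 for H2bc4, -1.51 for H4c3, -1.52 for H4c4 and -1.16 for H4c9. Of these, 6 (H1f1, H1f2, H1f3, H1f5, H2aw and H2bc18) were called whichever of the 8 libraries was left out. The other 5 were not, and 4 of them (H2bc4, H4c3, H4c4 and H4c9) lost the call without liver PSGL1lo replicate 1. H1f4 lost it without spleen PSGL1lo replicate 2 and without either liver PSGL1hi replicate.

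Against lung, 9 of the 13 differed, each lower in spleen, beside 16.6% of all genes called. The log2 differences (spleen minus lung) were -1.82 for H1f1, -0.582 for H1f2, -1.86 for H1f3, -1.89 for H1f4 and -1.57 for H1f5, and among core histones -0.929 for H2aw, -2.61 for H2bc18, -2.28 for H4c3 and -2.14 for H4c4. Of these, 8 were called whichever library was left out, the exception being H1f2 without lung PSGL1hi replicate 2. Tissue cannot be told apart from library series in any of them.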

How the results depend on the processing

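The count of 49 lower members in spleen PSGL1lo cells was 48 in each fit without a library and 48 by DESeq2. For cGVHD against GVHD-free, fits without a library called 9 to 24 members, 7 to 23 higher and 1 to 2 lower. For cGVHD PSGL1hi against GVHD-free PSGL1lo they called 48, 47 to 48 higher and 0 to 1 lower. In liver they called 1 to 3, 0 to 2 higher and 1 lower. In lung they called 5 to 13, 3 to 11 higher and 2 to 3 lower. Differences of spleen from liver numbered 8 to 22 and from lung 20 to 29. Summed levels were 4478 to 5286 CPM in cGVHD PSGL1lo, 12810 to 14970 CPM in cGVHD PSGL1hi and 3956 to 4085 CPM in GVHD-free libraries.

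Lower members in cGVHD numbered 2 with no filter, 2 with a 1 CPM filter and 3 in a fit of spleen libraries alone. Scaled to untailed RNAs, 2 were called, 0 higher and 2 lower, 1 of them H2bc1. Lower in cGVHD PSGL1hi against GVHD-free PSGL1lo were 0 by DESeq2 and with no filter. Liver gave 1 call, lower, by DESeq2 and 0, with 0 lower, in liver and lung libraries alone, where fewer members were tested. Lung gave 17 calls, 14 higher, with no filter and 5, 3 higher, in liver and lung libraries alone. The GVHD-free sum was 4253 CPM without TMM and 4136 CPM with library sizes that leave out histone and untailed RNAs.

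Signs turned in genes that were not called. For cGVHD against GVHD-free, the log2 change of Asf1b was -0.00724 with a 1 CPM filter, -0.00536 in spleen libraries alone and -0.00186 with sizes leaving out histone and untailed RNAs. Over the fits without a library, the ranges were -0.0372 to 0.0649 for Asf1b, -0.0832 to 0.0621 for Chaf1a, -0.106 to 0.252 for H3c7, -0.164 to 0.443 for H3c6, -0.0295 to 0.14 for H2ac12, -0.00581 to 0.182 for Ccnb1, -0.251 to 0.796 for Zfp473 and -0.0657 to 0.28 for H2ax. Of these, Asf1b turned below 0 and Chaf1a above it without GVHD-free replicate 1, and Chaf1a and the others turned without cGVHD PSGL1lo replicate 1. H2bc1, too low for its fitted change to be read, gave 0.347 (SE 1.28) in PSGL1lo against PSGL1hi, -0.0594 without cGVHD PSGL1lo replicate 1, and -0.672 (without cGVHD PSGL1hi replicate 2) to 5 over the fits without a library. The cause was not tested.

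By shared replicate number, correlations of deviations between groups were small, -0.0611 to 0.0838. The largest were between the 2 fractions of lung (0.0838) and of liver (0.0704), and that between the cGVHD spleen fractions was 0.0154. Names of liver and lung libraries carry a letter, A or B, that follows the replicate number in both fractions. The main fit took no pairing, and whether libraries were paired in liver or lung is not settled. With the replicate block, calls numbered 49 for fraction in spleen, 25 for disease, 49 for cGVHD PSGL1hi against GVHD-free PSGL1lo, 2 in liver, 14 in lung, and 22 and 28 for the differences of spleen from liver and lung. In liver and lung, the few reads of untailed RNA limit what could be detected.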

Other observations

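Among the other untailed RNAs, the 3 RNase P RNA-like genes Rprl1, Rprl2 and Rprl3 were higher in GVHD-free spleen libraries than in all 4 cGVHD ones. Rprl3 had 1.12 and 0.784 CPM in cGVHD PSGL1lo and 0.702 and 0.735 CPM in cGVHD PSGL1hi spleen libraries, against 349 and 359 CPM in GVHD-free PSGL1lo libraries. Rprl2 had 0.149 and 0 CPM in cGVHD PSGL1lo and 0.0468 and 0 CPM in cGVHD PSGL1hi, against 2.74 and 2.36 CPM in GVHD-free PSGL1lo libraries. Rprl1 was listed at 0 in both cGVHD PSGL1lo libraries and had 0.0468 and 0 CPM in cGVHD PSGL1hi, against 1.40 and 1.43 CPM in GVHD-free PSGL1lo libraries. The related Rpph1, the RNase P RNA itself, had 10090 and 7593 CPM in cGVHD PSGL1lo, 8520 and 7664 CPM in cGVHD PSGL1hi and 7131 and 7583 CPM in GVHD-free PSGL1lo libraries, which overlap. Reads shared between such copies can be split by the counting, so the values of these 3 genes are uncertain.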
